A study of Mus musculus with 6 samples.

Results

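Oncofetal genes, which the liver uses before birth and which can return in tumours, and genes of the bile duct and progenitor lineage were followed across 3 groups of mouse livers. The 10 genes were Afp, H19, Gpc3 and Dlk1, which are active in fetal liver, Ly6d, a cell surface gene of the Ly6 family, and Krt7, Krt19, Sox9, Epcam and Cd24a, which mark bile duct and liver progenitor cells. They were chosen by name, with earlier results of these data known. Every probe set that carries 1 of these symbols was read, which gave 20 probe sets of the 45037 tested and 10 of 20726 genes. A probe set is a group of short probes on the array that together give 1 value for a transcript. No probe set named a member together with another gene (0 such probe sets).

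Liver RNA of male C57BL/6J mice, 6 weeks old before a week of acclimatization, was hybridized to 6 arrays of the Affymetrix MG-430 PM type, with 2 arrays in each group. NASH+ISO mice received a diet with 60% of calories from fat over days 0 to 24, 4 intraperitoneal injections of CCl4 at 0.1 ml/kg, 5 injections of T0901317 at 2.5 ml/kg from day 20, and isorhamnetin by mouth at 50 mg/kg each day over days 11 to 24. NASH mice received the same diet, CCl4 and T0901317 with the vehicle of isorhamnetin, and CTL mice received chow and the vehicles. CCl4 is a solvent that injures hepatocytes, T0901317 activates the LXR receptors of lipid synthesis, and isorhamnetin is a plant flavonoid. The study kept 8 mice per group, while the sample labels call both arrays of a group technical repeats, so the errors and p-values below describe the spread between arrays and may miss the spread between mice. NASH stands for nonalcoholic steatohepatitis, which was induced here by the combination of diet, CCl4 and T0901317, so that effects of each agent cannot be told apart.

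During liver development, hepatoblasts give rise to both hepatocytes and bile duct cells. Hepatocytes switch off a fetal program after birth, with Afp as its best known secreted product, and parts of that program can return in regenerating liver and in liver tumours. Bile duct cells keep Sox9, Epcam and the keratins Krt7 and Krt19, and these genes also appear in the ductular cells that expand around portal veins in injured liver. In RNA of whole tissue, a change in the number of such cells and a change in the RNA of each cell cannot be told apart.

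The promoter of Afp is shown because Afp, with Ly6d, changed most in NASH livers, and that of Gpc3 because it is another fetal and tumour-associated gene, whose probe set was not called. Both are the 250 bases before the annotated start, read 5′ to 3′ along the gene's strand, from RefSeq on GRCm38.p6. Capitals mark matches to TATAAA (the TATA box) and CCAAT (the CCAAT box), each searched on both strands. The Afp window lies at chr5:90490464-90490713 on the plus strand, and the Gpc3 window at chrX:52613975-52614224 on the minus strand.
Afp: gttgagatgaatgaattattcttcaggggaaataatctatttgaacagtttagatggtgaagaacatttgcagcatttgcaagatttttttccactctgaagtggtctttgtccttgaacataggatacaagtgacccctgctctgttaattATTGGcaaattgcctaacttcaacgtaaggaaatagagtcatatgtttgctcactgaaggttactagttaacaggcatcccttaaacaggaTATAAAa
Gpc3: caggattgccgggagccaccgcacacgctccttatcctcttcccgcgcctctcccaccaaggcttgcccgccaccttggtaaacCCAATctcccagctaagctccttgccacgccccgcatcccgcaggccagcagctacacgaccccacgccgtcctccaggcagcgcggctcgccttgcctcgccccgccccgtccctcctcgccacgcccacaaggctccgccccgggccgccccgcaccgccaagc

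The Afp window held 1 TATAAA on the gene's own strand and 1 CCAAT on the opposite strand, written there as ATTGG, and the matches did not overlap. The Gpc3 window held 1 CCAAT and 0 matches to TATAAA. Of 32851 promoter windows of the same length, 12.4% held TATAAA and 33.8% CCAAT. G and C made up 36.0% of the Afp window and 71.6% of the Gpc3 window. Promoters of 5 members could be matched in the RefSeq table, and the windows of Dlk1, Krt7 and Epcam held none of these letters. Such matches describe the sequence and do not show a bound factor.

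The values are log2 signals, so that a difference of 1 is a doubling. Background was set at 2.90 log2, the highest value that any of 17 control probe sets without a mouse target reached. Of the 20 probe sets, 15 had a mean above 2.90 log2, 10 lay above it on all 6 arrays and 4 on none. Array medians were close, between 3.46 and 3.50 log2 in all groups. Groups were compared with limma over all 6 arrays, with p-values adjusted over the 45037 probe sets. A probe set was called at an adjusted p under 0.05, and counts were also made with a fold change of at least 2 added. Both comparisons with CTL use the same CTL arrays, and both comparisons of NASH use the same NASH arrays, so their differences are not independent.

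**Figure D1:**
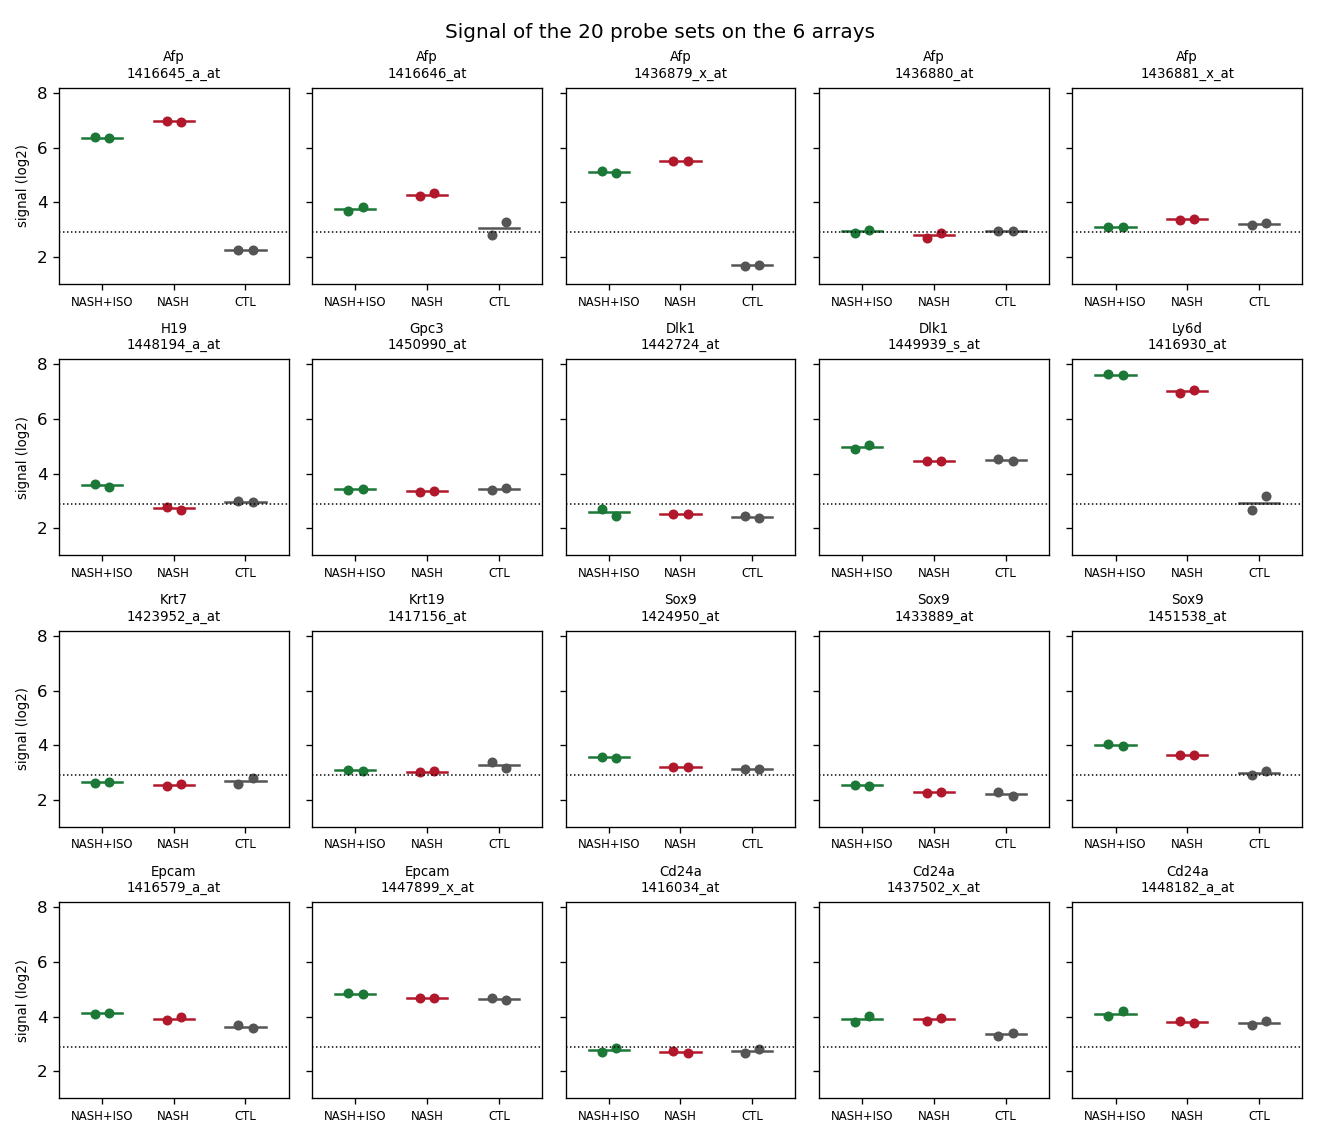
Signal of each of the 20 probe sets (log2, vertical axis) in NASH+ISO, NASH and CTL livers, with points for the 2 arrays of a group and a bar for their mean. The dotted line is the background level of 2.90 log2. Afp (1416645_PM_a_at and 1436879_PM_x_at) and Ly6d stand far above CTL in NASH+ISO and NASH, and the other panels show smaller steps or none.

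Afp, the main serum protein of the fetus and a relative of albumin, was higher in NASH than in CTL livers on 4 of its 5 probe sets. Its probe set 1416645_PM_a_at read 6.37 and 6.35 log2 in NASH+ISO livers, 6.99 and 6.93 in NASH livers and 2.23 and 2.24 in CTL livers. Both CTL arrays lay under the background level, so the rise is given as a lower bound, at least 16.7-fold in NASH (adjusted p = 1.26e-08) and at least 11.0-fold in NASH+ISO (adjusted p = 3.39e-08), both against CTL. NASH+ISO lay between the other groups and below NASH by 0.60 log2 (-0.60, SE 0.0414, adjusted p = 7.11e-05). No 2 groups overlapped.

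A second Afp probe set, 1436879_PM_x_at, whose suffix warns of probes that may bind other transcripts, gave the same order. It read 5.15 and 5.07 log2 in NASH+ISO livers, 5.51 and 5.52 in NASH livers and 1.67 and 1.70 in CTL livers. Its rise was at least 6.15-fold in NASH (adjusted p = 2.21e-08) and at least 4.63-fold in NASH+ISO (adjusted p = 3.4e-08) over CTL. Between NASH+ISO and NASH the difference was -0.41 log2 (SE 0.0437, adjusted p = 0.000433).

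The third, 1416646_PM_at, was dimmer and noisier. It read 3.68 and 3.81 log2 in NASH+ISO livers, 4.22 and 4.32 in NASH livers and 2.80 and 3.26 in CTL livers, where the arrays lay on either side of background. It was higher than in CTL by 1.24 log2 in NASH (SE 0.135, adjusted p = 0.000246) and by 0.71 in NASH+ISO (SE 0.135, adjusted p = 0.00471; 0.0959 without moderation of the spread). Its difference between NASH+ISO and NASH, -0.52 (SE 0.135, adjusted p = 0.0213), lost its call without any 1 of the 4 arrays compared, with adjusted p between 0.0564 and 0.108.

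Both remaining Afp probe sets stayed near background in every group. Probe set 1436881_PM_x_at read 3.09 and 3.08 log2 in NASH+ISO livers, 3.35 and 3.39 in NASH livers and 3.16 and 3.22 in CTL livers. NASH was higher than CTL by 0.18 log2 (adjusted p = 0.00856; 0.0562 without NASH replicate 2), NASH+ISO differed from NASH by -0.28 (adjusted p = 0.00178), and NASH+ISO differed from CTL by -0.10 (adjusted p = 0.0922). For 1436880_PM_at the values were 2.86 and 2.98 in NASH+ISO livers, 2.69 and 2.87 in NASH livers and 2.94 and 2.95 in CTL livers, and no comparison passed. The size of the Afp rise thus depended on the probe set, with differences between NASH and CTL of -0.17 to 4.72 log2, the upper one against CTL signals under background. The position of these probe sets along the transcript was not analysed here.

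H19, an imprinted RNA without a protein product that is abundant in fetal liver, followed another order than Afp. Its probe set 1448194_PM_a_at read 3.62 and 3.52 log2 in NASH+ISO livers, 2.77 and 2.67 in NASH livers and 2.99 and 2.95 in CTL livers. NASH+ISO lay above both other groups, and both NASH arrays were under background. H19 was at least 1.59-fold higher in NASH+ISO than in NASH (adjusted p = 5e-05) and higher than in CTL by 0.60 log2 (SE 0.0542, adjusted p = 0.000128). NASH was lower than CTL by 0.25 log2 (-0.25, SE 0.0542, adjusted p = 0.0071), a step that ended below background and that missed the threshold on the workbook values (-0.18, adjusted p = 0.0665).

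Dlk1, a membrane protein with EGF repeats that marks hepatoblasts, was higher in NASH+ISO on its brighter probe set. Probe set 1449939_PM_s_at, whose suffix stands for probes shared by several transcripts, read 4.92 and 5.06 log2 in NASH+ISO livers, 4.45 and 4.46 in NASH livers and 4.53 and 4.46 in CTL livers. The NASH and CTL arrays differed by less than 0.1 log2 in the mean (-0.04, adjusted p = 0.572). NASH+ISO stood above NASH by 0.54 log2 (SE 0.0564, adjusted p = 0.00041) and above CTL by 0.49 (SE 0.0564, adjusted p = 0.000413). The other probe set, 1442724_PM_at, was under background on all 6 arrays, at 2.69 and 2.46 in NASH+ISO livers, 2.53 and 2.51 in NASH livers and 2.44 and 2.38 in CTL livers, and no difference of it passed in the fit of the value table, while on the workbook values NASH+ISO differed from CTL by 0.19 (adjusted p = 0.0357).

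Gpc3, a heparan sulfate proteoglycan of the cell surface that is used as a marker of human liver cancer, gave no call in the fit of the value table. Its single probe set 1450990_PM_at read 3.39 and 3.45 log2 in NASH+ISO livers, 3.32 and 3.38 in NASH livers and 3.40 and 3.46 in CTL livers. The differences were -0.09 (SE 0.0453, adjusted p = 0.161) for NASH against CTL, -0.01 (adjusted p = 0.828) for NASH+ISO against CTL and 0.07 (adjusted p = 0.258) for NASH+ISO against NASH. The arrays of NASH+ISO and CTL overlapped, and on the workbook values NASH differed from CTL by -0.12 (adjusted p = 0.0453).

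Ly6d, which carries a lipid anchor and is best known in mice from B lymphoid progenitors, was far higher than in CTL in both diseased groups. Probe set 1416930_PM_at read 7.63 and 7.60 log2 in NASH+ISO livers, 6.96 and 7.06 in NASH livers and 2.68 and 3.17 in CTL livers. The CTL arrays lay on either side of background, and both diseased groups lay far above. Ly6d was higher than in CTL by 4.08 log2 in NASH (SE 0.139, adjusted p = 8.58e-07) and by 4.69 in NASH+ISO (SE 0.139, adjusted p = 7.47e-07). NASH+ISO exceeded NASH by 0.60 log2 (SE 0.139, adjusted p = 0.0135), which is opposite in sign to Afp. That last call was lost without NASH replicate 1 (adjusted p = 0.07), NASH+ISO replicate 1 (0.0669) or NASH+ISO replicate 2 (0.0559).

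Markers of B cells were also counted, and their part in the Ly6d values was not tested. Of 8 B cell markers, 0 were higher and 3 lower in NASH than in CTL, and 1 was higher and 2 lower in NASH+ISO than in CTL. Among all genes, 24.7% were higher and 28.3% lower in NASH than in CTL, each read on its brightest probe set. In NASH+ISO against CTL these shares were 23.2% and 23.0%. The counts were not tested against the shares. Fcer2a, called lower in both comparisons, was under background on every array. Cd79a, a part of the B cell receptor, differed by -0.175 between NASH and CTL (adjusted p = 0.0183), and Ms4a1, which encodes CD20, by -0.41 (adjusted p = 0.000836). The summed linear signal of the list lay between 109.5 and 111.2 on the NASH+ISO arrays, 106.9 and 107.1 on the NASH arrays and 113.9 and 118.2 on the CTL arrays.

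Sox9, the transcription factor of bile duct cells and of some periportal hepatocytes, was read by 3 probe sets. The brightest, 1451538_PM_at, read 4.03 and 3.96 log2 in NASH+ISO livers, 3.65 and 3.63 in NASH livers and 2.92 and 3.05 in CTL livers. The 3 groups did not overlap, with NASH+ISO highest and CTL lowest. It was higher than in CTL by 0.66 log2 in NASH (SE 0.0544, adjusted p = 5.86e-05) and by 1.01 in NASH+ISO (SE 0.0544, adjusted p = 1.02e-05), and higher in NASH+ISO than in NASH by 0.36 (SE 0.0544, adjusted p = 0.00226). The fold change of 2.02 in NASH+ISO lies just inside the limit of 2, and leaving out CTL replicate 1 or NASH+ISO replicate 1 took it under that limit.

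The other Sox9 probe sets separated NASH+ISO from both other groups and gave no call for NASH against CTL. Probe set 1424950_PM_at read 3.58 and 3.52 log2 in NASH+ISO livers, 3.19 and 3.18 in NASH livers and 3.13 and 3.12 in CTL livers. NASH+ISO was higher by 0.36 than NASH (adjusted p = 0.000504) and by 0.42 than CTL (adjusted p = 0.000155), while NASH and CTL differed by 0.06 (adjusted p = 0.241). Probe set 1433889_PM_at, under background throughout, read 2.54 and 2.51 in NASH+ISO livers, 2.25 and 2.29 in NASH livers and 2.28 and 2.14 in CTL livers. It was higher in NASH+ISO by 0.26 against NASH (adjusted p = 0.0086; 0.0531 without NASH replicate 1) and by 0.32 against CTL (adjusted p = 0.00271), and no fold is drawn from values at that level.

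Epcam, an adhesion molecule of bile duct cells, showed small steps. Probe set 1416579_PM_a_at read 4.09 and 4.14 log2 in NASH+ISO livers, 3.88 and 3.97 in NASH livers and 3.70 and 3.56 in CTL livers. The order was the same as for Sox9, with differences of 0.29 for NASH against CTL (adjusted p = 0.00594) and 0.48 for NASH+ISO against CTL (adjusted p = 0.000644). Probe set 1447899_PM_x_at read 4.87 and 4.81 in NASH+ISO livers, 4.68 and 4.67 in NASH livers and 4.69 and 4.61 in CTL livers, with a difference of 0.19 for NASH+ISO against CTL (adjusted p = 0.014; 0.0731 without CTL replicate 2 and 0.0746 without NASH+ISO replicate 1) and 0.03 for NASH against CTL (adjusted p = 0.663). The differences between NASH+ISO and NASH, 0.19 (adjusted p = 0.0453) and 0.17 (adjusted p = 0.029), both lost their call when each array was centred on its median (adjusted p = 0.0829 and 0.0602). Leaving out any 1 of the 4 arrays compared also ended the call of the first (adjusted p between 0.061 and 0.208), and leaving out either NASH array or NASH+ISO replicate 1 that of the second (0.0987, 0.114 and 0.132).

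Cd24a, a heavily glycosylated surface protein of progenitor and blood cells, was higher in both diseased groups on 1437502_PM_x_at. That probe set read 3.79 and 4.03 log2 in NASH+ISO livers, 3.84 and 3.96 in NASH livers and 3.30 and 3.39 in CTL livers. It exceeded CTL by 0.55 in NASH (SE 0.086, adjusted p = 0.00151) and by 0.56 in NASH+ISO (SE 0.086, adjusted p = 0.0017), and the diseased groups overlapped. Without moderation of the spread both differences missed the threshold (adjusted p = 0.0524 and 0.0575). On 1448182_PM_a_at, which read 4.03 and 4.19 in NASH+ISO livers, 3.83 and 3.76 in NASH livers and 3.68 and 3.83 in CTL livers, NASH+ISO alone stood apart, by 0.35 from CTL (adjusted p = 0.00596) and 0.32 from NASH (adjusted p = 0.0118; 0.0703 without NASH replicate 2 and 0.0612 without NASH+ISO replicate 2). These too missed it without moderation (adjusted p = 0.0848 and 0.114). Probe set 1416034_PM_at was under background on all arrays, at 2.70 and 2.84 in NASH+ISO livers, 2.72 and 2.65 in NASH livers and 2.66 and 2.81 in CTL livers, and passed no test.

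Krt7 and Krt19, filament proteins of bile duct cells, were not called higher in any comparison. Krt19 on 1417156_PM_at read 3.07 and 3.06 log2 in NASH+ISO livers, 3.01 and 3.04 in NASH livers and 3.36 and 3.17 in CTL livers. It was lower than in CTL in NASH (-0.24, SE 0.0642, adjusted p = 0.0186) and in NASH+ISO (-0.20, SE 0.0642, adjusted p = 0.044), and without CTL replicate 1 the differences were -0.14 and -0.10 (adjusted p = 0.0604 and 0.165). The call in NASH was also lost without NASH replicate 1 (adjusted p = 0.0848) or NASH replicate 2 (0.0593). Krt7 on 1423952_PM_a_at stayed under background on all 6 arrays, at 2.61 and 2.66 in NASH+ISO livers, 2.51 and 2.58 in NASH livers and 2.56 and 2.80 in CTL livers. No difference of Krt7 passed with all arrays, and without CTL replicate 1 NASH differed from CTL by -0.26 (adjusted p = 0.0151), all under background.

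**Figure D2:**
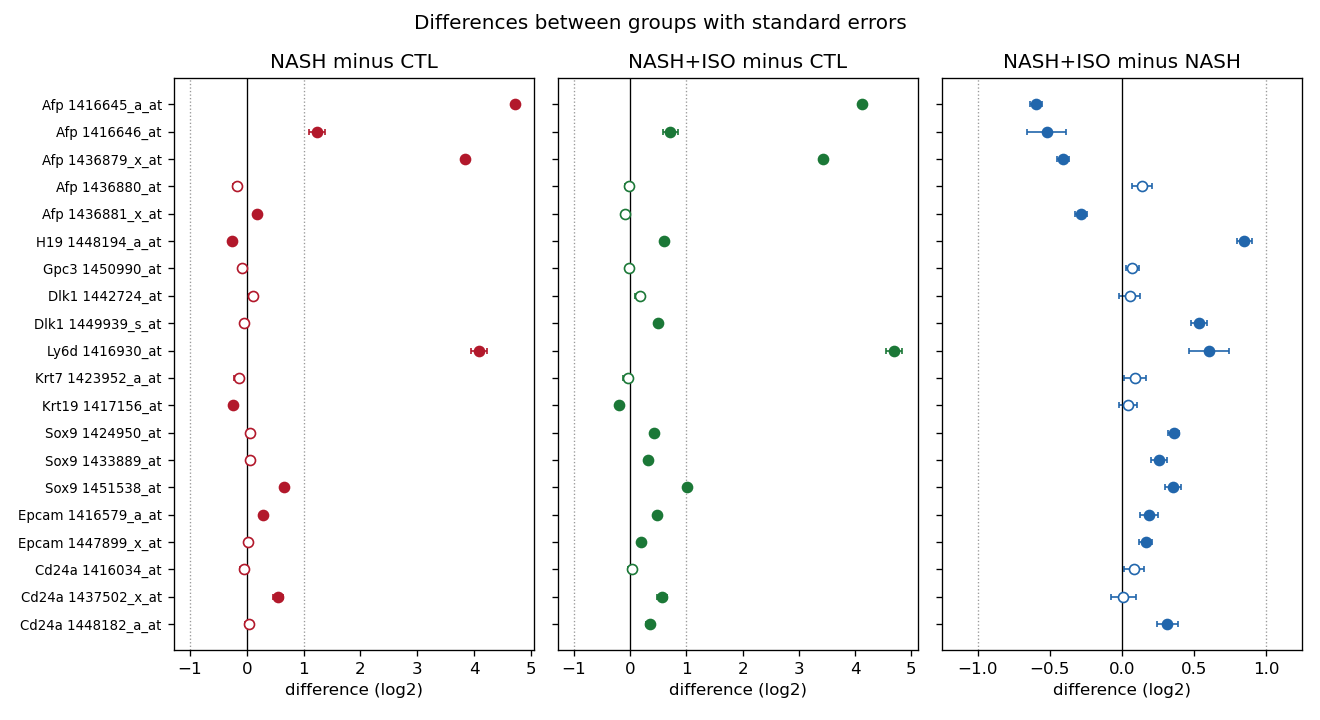
Difference in log2 signal (horizontal axis) of each probe set for NASH minus CTL, NASH+ISO minus CTL and NASH+ISO minus NASH, with standard errors from limma as bars. Filled points had an adjusted p under 0.05, dotted lines mark a fold change of 2, and the right panel has a narrower scale: the filled points there are 4 Afp probe sets below 0 and 9 probe sets of H19, Dlk1, Ly6d, Sox9, Epcam and Cd24a above 0.

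The members were chosen with earlier results known, so the counts below describe them and cannot show an excess over all probe sets. Counted over the 20 probe sets, NASH against CTL gave 8 higher and 2 lower, where 22.0% of all probe sets were called higher and 27.2% lower. With a fold change of 2 the members gave 4 higher, namely Ly6d and 3 of Afp, and 0 lower, against 2.49% and 1.11% of all probe sets. The median difference of the members was 0.06 log2, and that of all probe sets -0.04.

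NASH+ISO against CTL gave 13 higher and 1 lower, where 21.2% of all probe sets were higher and 21.5% lower. Those higher came from Afp, H19, Dlk1, Ly6d, Sox9, Epcam and Cd24a, and the lower one was Krt19, whose call was lost without each array other than CTL replicate 2. At a fold change of 2, 4 were higher and 0 lower, against 1.35% and 0.79% of all probe sets: both bright Afp probe sets, Ly6d and Sox9. The median of the members was 0.39 log2 and that of all probe sets -0.01.

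NASH+ISO against NASH gave 9 higher and 4 lower, where 19.5% of all probe sets were higher and 17.7% lower. All 4 of the lower ones were Afp, and the 9 higher ones came from H19, Dlk1, Ly6d, Sox9, Epcam and Cd24a. None passed at a fold change of 2 (0 of 20 by limma, also at unadjusted p and without moderation of the spread), where 0.238% of all probe sets were higher and 0.533% lower. The median of the members was 0.12 log2 and that of all probe sets 0.02. Without NASH replicate 1 the count of 13 became 8 (5 higher), and without moderation of the spread it was 7.

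The genes nearest to the strongly changed members over the 6 arrays were taken from 15189 genes above background, by the distance between their profiles after the mean of each was removed. Nearest to Afp 1416645_PM_a_at were Pnpla3, a lipase of lipid droplets, at 0.575 log2, Fabp5, a fatty acid carrier, at 0.724, and Mvd, of cholesterol synthesis, at 0.851. Afp 1436879_PM_x_at lay next to Mvd (0.347), Ehhadh of peroxisomal fatty acid oxidation (0.363) and D9Wsu90e (0.442). Ly6d lay next to Fabp5 (0.751), Pnpla3 (0.805) and D9Wsu90e (0.992). The dimmer Afp 1416646_PM_at was nearest to Atf3, a stress-induced transcription factor, at 0.178, then Ostf1 (0.229) and Magi3 (0.276). For Sox9 1451538_PM_at the nearest were Pde9a (0.0832), Qprt (0.0881) and Tmem180 (0.101). This distance weighs the size of a step as well as its direction, and it describes 6 arrays only.

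For the lists that follow, each gene was read on its brightest probe set, and 24.7% of all genes were higher and 28.3% lower in NASH than in CTL. In NASH+ISO against CTL the shares were 23.2% and 23.0%, and in NASH+ISO against NASH 19.9% and 19.8%. Transcription factors and repressors that act on Afp were mostly lower in NASH. Of 15 such genes, 2 were higher, 10 lower and 3 not called in NASH against CTL, with a median of -0.17 log2 beside -0.03 for all genes. In NASH+ISO against CTL 3 were higher and 8 lower, and in NASH+ISO against NASH 6 were higher and 3 lower.

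Hnf4a, the master regulator of hepatocyte genes, averaged 9.92 log2 in NASH+ISO livers, 9.56 in NASH livers and 10.77 in CTL livers, and changed in NASH by -1.21 (adjusted p = 6.73e-07). These values are of its brightest probe set, and over its 4 probe sets the change was -1.21 to -0.07. Zbtb20, which represses Afp in the mouse liver after birth, averaged 9.02 in NASH+ISO livers, 8.81 in NASH livers and 9.62 in CTL livers, a change of -0.81 in NASH (SE 0.0394) on its brightest probe set and of -1.58 to 0.44 over its 9 probe sets. Zhx2, whose loss leaves Afp active in adult mice, averaged 4.81 in NASH+ISO livers, 4.91 in NASH livers and 4.94 in CTL livers and gave no call. Its relative Zhx3 changed by -0.76 in NASH (SE 0.0599) and -0.51 in NASH+ISO, both against CTL. Over the 5 probe sets of Zhx3 the ranges were -0.76 to -0.03 and -0.51 to -0.02. Foxa2, a factor that opens liver chromatin, was higher by 0.77 in NASH and 0.72 in NASH+ISO.

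Within the albumin family, Afp was the 1 gene of 4 called higher than in CTL on its brightest probe set. Alb averaged 12.59 log2 in NASH+ISO livers, 12.56 in NASH livers and 12.50 in CTL livers and gave no call. Afm, which binds vitamin E, differed from CTL by -0.26 in NASH (adjusted p = 0.00105) and by -0.75 in NASH+ISO (adjusted p = 7.68e-06), while its 2 probe sets disagreed in sign for NASH (-0.26 and 0.18). Gc, the vitamin D carrier, differed from CTL by -0.18 in NASH (adjusted p = 0.0056) and by -0.24 in NASH+ISO (adjusted p = 0.0021). Of the hepatocyte markers, 1 of 15 was higher and 8 lower in NASH than in CTL, with a median of -0.25 log2. Their summed signal, most of it from a few very bright genes such as Alb, was 35870 to 36020 on the NASH+ISO arrays, 35240 to 35340 on the NASH arrays and 38230 to 38490 on the CTL arrays.

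**Figure D3:**
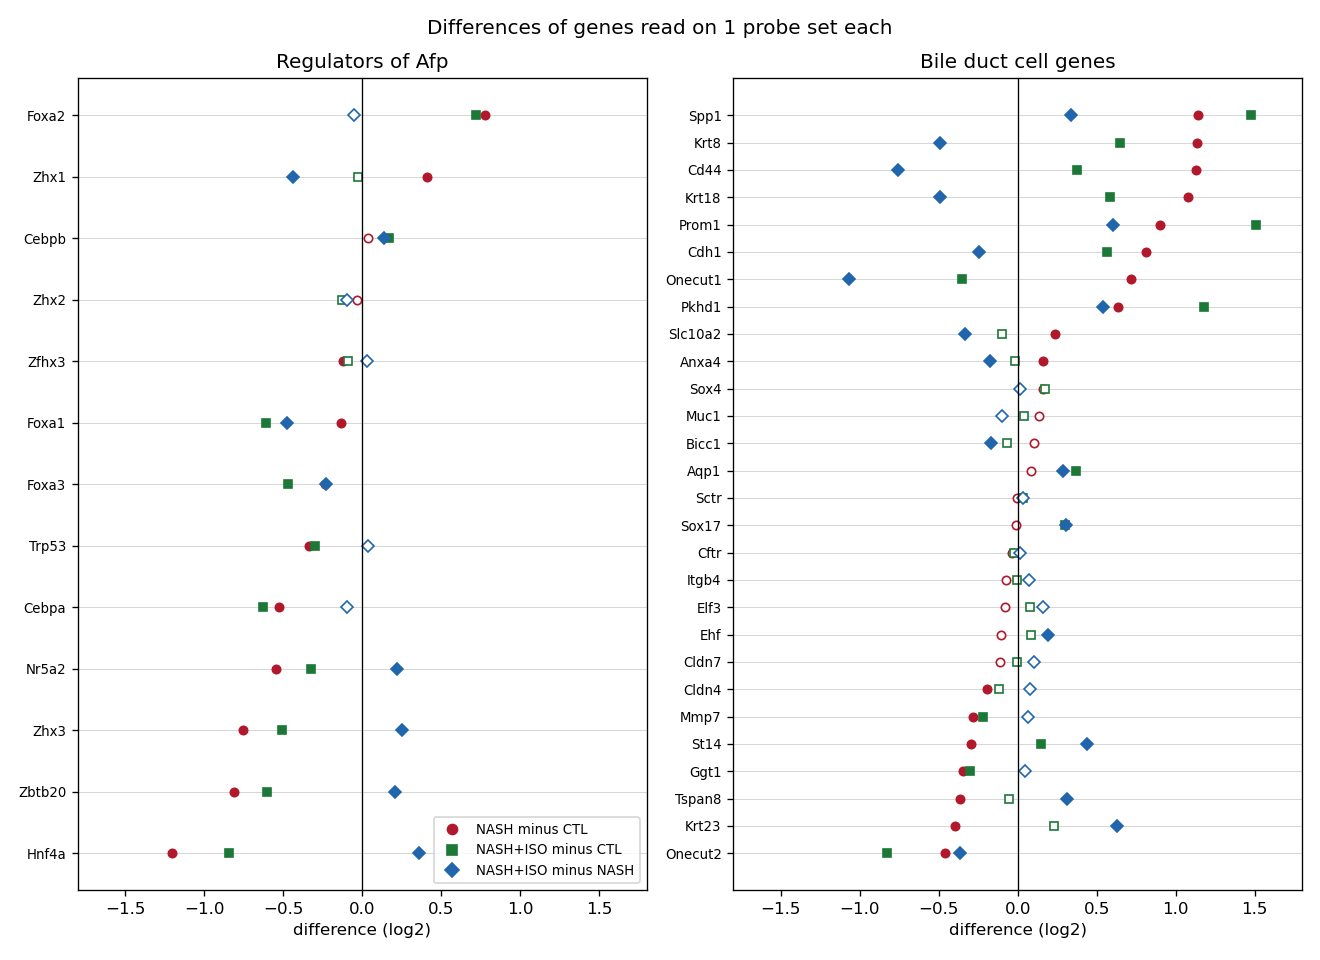
Difference in log2 signal (horizontal axis) of 13 of the 15 regulators of Afp (left) and 28 of the 30 bile duct cell genes (right), each on its brightest probe set and ordered by NASH minus CTL. Filled symbols had an adjusted p under 0.05: Hnf4a, Zbtb20 and Zhx3 lie lowest on the left, and Spp1, Prom1 and Pkhd1 on the right lie highest in NASH+ISO.

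Among imprinted growth genes, of which 18 of 20 were measured, 4 were higher and 9 lower in NASH than in CTL, with a median of -0.17 log2. Peg3, a zinc finger gene, averaged 6.46 in NASH+ISO livers, 6.82 in NASH livers and 5.19 in CTL livers, higher in NASH by 1.64 on its brightest probe set and by -0.34 to 1.64 over its 5. Igf2, the growth factor next to H19, averaged 3.14 in NASH+ISO livers, 2.87 in NASH livers and 3.01 in CTL livers and gave no call. Its signal was above background on 3 of the 6 arrays, with both NASH arrays and CTL replicate 1 under that level. Meg3 and Mirg, RNAs of the Dlk1 cluster, were lower in NASH than in CTL by 0.34 and 0.61 (-0.34 and -0.61) on their brightest probe sets. The ranges were -0.38 to 0.11 over the 11 probe sets of Meg3 and -0.61 to -0.06 over the 2 of Mirg. On the brightest probe sets neither was called between NASH+ISO and NASH, where Dlk1 was. Plagl1, a zinc finger factor of an imprinted gene network, averaged 6.35 in NASH+ISO livers, 5.80 in NASH livers and 5.53 in CTL livers. It was higher in NASH+ISO than in NASH by 0.55 (adjusted p = 0.000807) on its brightest probe set and by -0.03 to 0.55 over its 3. Gnas and Sgce differed between NASH and CTL by -0.43 and 0.40, and the 2 probe sets of Sgce gave -0.02 and 0.40.

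Oncofetal RNA binding and chromatin genes gave few calls. Of 8 measured, 1 was higher and 0 lower in NASH against CTL, 1 was higher and 1 lower in NASH+ISO against CTL, and 0 were called in NASH+ISO against NASH by limma. Lin28a, Lin28b, Hmga2 and Trim71 were under background on every array. Igf2bp2, which binds and stabilizes mRNAs, was higher than in CTL by 0.44 in NASH (adjusted p = 0.0202) and 0.48 in NASH+ISO (adjusted p = 0.0165) on its brighter probe set, and by 1.39 and 1.90 on the other.

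The glypican family divided around Gpc3. Of the 6 genes, 2 were higher and 1 lower in NASH than in CTL. Gpc1 averaged 3.90 log2 in NASH+ISO livers, 4.14 in NASH livers and 3.35 in CTL livers, higher by 0.79 in NASH (adjusted p = 0.000108). Gpc6 was higher by 0.41 in NASH (adjusted p = 0.00963) and 0.52 in NASH+ISO (adjusted p = 0.00395), with a range of -0.03 to 0.64 over its 5 probe sets in NASH. Gpc4 averaged 6.72 in NASH+ISO livers, 6.81 in NASH livers and 7.48 in CTL livers, a change of -0.66 in NASH. Gpc2 and Gpc5 were under background on all arrays.

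Among 10 measured genes of the Ly6 family, Ly6d included, 4 were higher and 0 lower in NASH against CTL, and likewise 4 and 0 in NASH+ISO against CTL. Ly6a, also known as Sca-1, averaged 6.84 log2 in NASH+ISO livers, 7.10 in NASH livers and 5.94 in CTL livers. Ly6e averaged 7.71 in NASH+ISO livers, 7.87 in NASH livers and 6.83 in CTL livers. In NASH these stood above CTL by 1.15 and 1.04, and NASH+ISO differed from NASH by -0.25 for Ly6a and -0.16 for Ly6e, whose other probe set gave 0.26. Gpihbp1, which anchors lipoprotein lipase on endothelium, followed Ly6d in sign, higher in NASH+ISO than in NASH by 0.55 (adjusted p = 6.37e-05).

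Bile duct cell genes moved in both directions. Of 30 genes, none of them a member, 10 were higher and 9 lower in NASH than in CTL, 11 higher and 4 lower in NASH+ISO than in CTL, and 10 higher and 9 lower in NASH+ISO than in NASH. The medians were -0.01, 0.06 and 0.07 log2. Cftr, Sctr, St14 and Slc10a2 were under background on all 6 arrays.

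Spp1, or osteopontin, a secreted protein of bile duct cells and macrophages, averaged 8.63 log2 in NASH+ISO livers, 8.29 in NASH livers and 7.15 in CTL livers. Prom1, the progenitor marker CD133, averaged 5.35 in NASH+ISO livers, 4.75 in NASH livers and 3.85 in CTL livers. Pkhd1, a protein of the duct cell cilium, averaged 4.62 in NASH+ISO livers, 4.08 in NASH livers and 3.44 in CTL livers. All 3 were called in each comparison and rank the groups as Sox9 1451538_PM_at does, with differences between NASH+ISO and NASH of 0.34, 0.61 and 0.54. Prom1 and Pkhd1 were picked after their values were seen, so this shared order does not describe the list. Its calls in NASH against CTL were 10 higher and 9 lower. Among the lower ones, Onecut2 differed from CTL by -0.46, Krt23 by -0.40 and Mmp7 by -0.28.

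Krt8 and Krt18, keratins that hepatocytes also make, ranked the groups otherwise. Krt8 averaged 9.72 in NASH+ISO livers, 10.21 in NASH livers and 9.07 in CTL livers, and Krt18 averaged 9.61 in NASH+ISO livers, 10.10 in NASH livers and 9.02 in CTL livers. For each, NASH+ISO differed from NASH by -0.49. Cd44, a hyaluronan receptor, averaged 4.57 in NASH+ISO livers, 5.32 in NASH livers and 4.19 in CTL livers, and its 4 probe sets gave -0.13 to 1.13 for NASH against CTL. Onecut1, a transcription factor of both hepatocytes and duct cells, was higher in NASH than in CTL by 0.72 and lower in NASH+ISO than in NASH by 1.07 (-1.07).

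Genes of the Notch and YAP pathways, which guide the choice between hepatocyte and duct cell, were also mixed. Of 24 genes, 9 were higher and 7 lower in NASH than in CTL, 9 higher and 8 lower in NASH+ISO than in CTL, and 6 higher and 8 lower in NASH+ISO than in NASH. Hes1, a direct Notch target, averaged 4.86 log2 in NASH+ISO livers, 4.31 in NASH livers and 4.33 in CTL livers, higher in NASH+ISO than in NASH by 0.55 (adjusted p = 0.00041). Notch2 averaged 6.58 in NASH+ISO livers, 7.05 in NASH livers and 5.91 in CTL livers, and its probe sets differed from CTL in NASH by -0.16 and 1.13. Ccn2, a target of YAP, averaged 5.50 in NASH+ISO livers, 6.02 in NASH livers and 4.36 in CTL livers. Amotl2 and the YAP-restraining kinase Lats2 differed between NASH and CTL by -0.75 and -0.65, and the 6 probe sets of Lats2 gave -0.65 to -0.006.

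Of 14 measured ligands and receptors of the progenitor niche, 3 were higher and 7 lower in NASH than in CTL, 2 higher and 7 lower in NASH+ISO than in CTL, and 1 higher and 4 lower in NASH+ISO than in NASH. Tnfrsf12a, the receptor of the progenitor mitogen TWEAK, averaged 4.65 log2 in NASH+ISO livers, 5.69 in NASH livers and 4.77 in CTL livers. It was higher in NASH than in CTL by 0.91 and lower in NASH+ISO than in NASH by 1.03 (-1.03). Lgr5, a Wnt-responsive receptor of hepatocytes around the central vein, differed from CTL by -1.17 in NASH and by -1.12 in NASH+ISO. The other of its 2 probe sets gave -0.15 and -0.16. The growth factor receptors Fgfr2 and Egfr differed between NASH and CTL by -1.12 and -1.07 on their brightest probe sets. The ranges were -1.12 to -0.31 over the 2 probe sets of Fgfr2 and -1.38 to 0.11 over the 7 of Egfr.

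Markers of other cells moved between the same groups, and their part in the results above was not tested. Proliferation markers were higher in 8 of 10 genes in NASH and in NASH+ISO, both against CTL, and lower in 7 of 10 in NASH+ISO against NASH, with 0 changes in the other direction. Their summed linear signal was 433.5 to 451.3 on the NASH+ISO arrays, 1007 to 1010 on the NASH arrays and 198.1 to 206.1 on the CTL arrays, the same order as Afp. Mki67 averaged 5.59 log2 in NASH+ISO livers, 6.32 in NASH livers and 3.57 in CTL livers, and Mcm5, Rrm2 and Pcna were called higher in NASH as well.

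Endothelial markers ranked the groups otherwise, with 5 of 8 higher and 0 lower in NASH+ISO against NASH, led by Lyve1 at 0.95 (adjusted p = 3.19e-05), and with sums of 424.4 to 427.3 on the NASH+ISO arrays, 299.7 to 303.0 on the NASH arrays and 308.9 to 313.1 on the CTL arrays. Against CTL, 2 were higher and 3 lower in NASH, and 4 higher and 1 lower in NASH+ISO. The 9 member probe sets called higher in NASH+ISO than in NASH also had means above CTL there. Their order against NASH is fixed by that choice, and the share of all probe sets with the same order was not counted. Whether they follow the endothelial markers was not tested. Stellate and fibroblast markers were lower in 8 of 10 genes and higher in 0 in NASH+ISO against NASH. Against CTL, 5 were higher and 2 lower in NASH, and 2 higher and 5 lower in NASH+ISO. Their sums were 703.2 to 704.5 on the NASH+ISO arrays, 1149 to 1161 on the NASH arrays and 897.6 to 900.7 on the CTL arrays. Macrophage markers were lower in 5 of 8 and higher in 0 in NASH+ISO against NASH. Of these 8, 3 were higher and 1 lower in NASH than in CTL, and 2 higher and 3 lower in NASH+ISO than in CTL. The macrophage sums were 661.1 to 669.9 on the NASH+ISO arrays, 977.1 to 985.6 on the NASH arrays and 746.2 to 753.8 on the CTL arrays.

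Erythroid markers, read because fetal liver makes blood, were not raised in NASH. Of 10 genes, 0 were higher and 3 lower in NASH against CTL, and Alas2, of haem synthesis in red cells, differed by -1.615. In NASH+ISO 1 was higher and 3 lower against CTL. Against NASH 1 was higher, Klf1 at 0.45 (adjusted p = 0.00146 by limma), and 0 lower. Their sums were 125.6 to 129.9 on the NASH+ISO arrays, 118.7 to 121.5 on the NASH arrays and 207.7 to 211.3 on the CTL arrays. Neutrophil markers gave 0 higher and 2 lower of 8 measured in NASH against CTL, 2 higher and 1 lower in NASH+ISO against CTL, and 3 higher and 0 lower in NASH+ISO against NASH, with sums of 92.89 to 94.18 on the NASH+ISO arrays, 84.7 to 86.86 on the NASH arrays and 94.19 to 95.75 on the CTL arrays. Mesothelial markers gave 1 higher and 2 lower of 7, with Msln and Wt1 under background on all arrays.

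**Figure D4:**
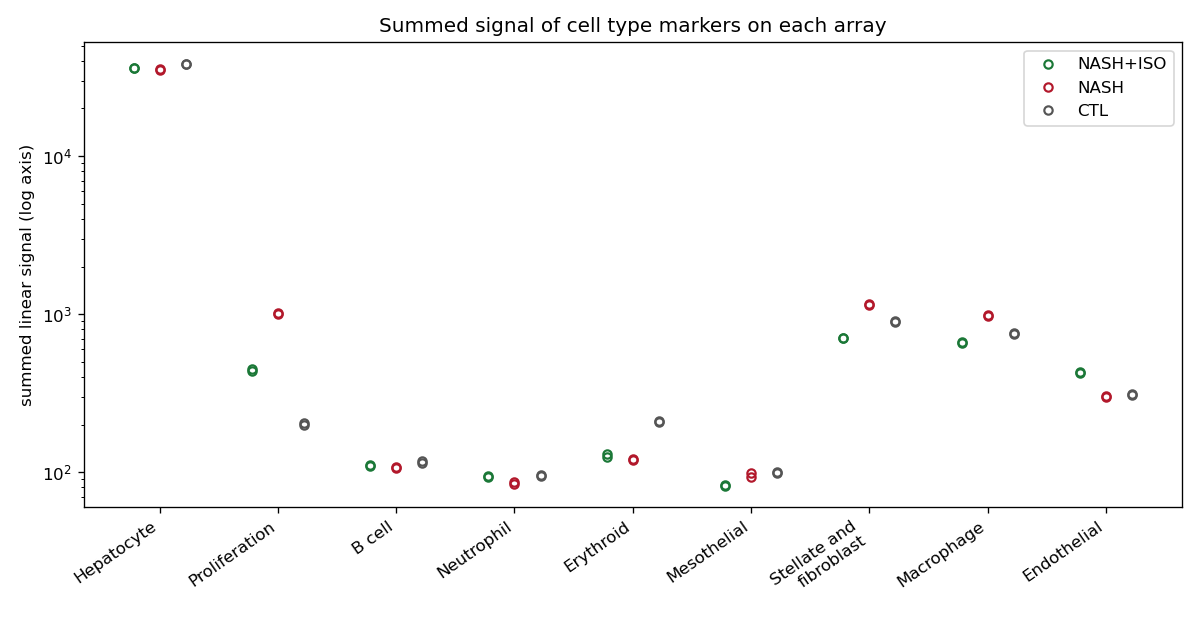
Summed linear signal of each list of cell type markers (vertical axis, log scale) on each array, with open circles for the 2 arrays of NASH+ISO, NASH and CTL. Proliferation markers are highest in NASH and lowest in CTL, endothelial markers are highest in NASH+ISO, and hepatocyte markers lie between 35240 and 38490 on all arrays.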

How the data were processed

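Expression was measured in 6 liver samples on Affymetrix MG-430 PM arrays. For the value table of 45141 entries, the authors ran RMA in Affymetrix Expression Console and deposited the resulting log2 signals. Workbooks the authors deposited hold a second set of log2 values, on average 0.0994 lower (-0.0994), used as an alternative, with a signed fold change score and a p-value per probe set, both computed by the authors in Transcriptome Analysis Console and not used here. The labels give 9.4 µg of labelled RNA and the series text 100 ng. After 104 control probe sets were removed, 45037 remained for testing.

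A limma model (version 3.58.1, R 4.3.3) with a mean per group was fitted over all arrays (3 residual and 4.01 prior degrees of freedom, prior SD 0.0487 log2), with Benjamini-Hochberg adjustment over all probe sets. Symbols come from the workbooks, with 4 list genes found under an older symbol through RefSeq (GRCm38.p6), and 207 of 216 list genes in 18 lists were measured. A lower bound on a fold sets the dim group at the background level on each array. Members and lists were chosen with earlier results of these data known. All members are named, and other genes come mainly from the 4 of each list with the largest called difference in NASH against CTL, from lists of up to 6, and from the 3 nearest genes of members called at a fold of 2. Others (Zhx2, Igf2, Meg3, Plagl1, Prom1, Pkhd1, Onecut1 and Hes1 among them) were picked after their values were seen. Some list genes enter the counts but are not reported here by name. Scripts were tested on simulated data. Summaries used Python 3.11.15 and pandas 2.3.3, and plots matplotlib 3.10.9.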

Additional observations from a re-analysis of the deposited data

How the results depend on the processing

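Differences of single probe sets were repeated 825 times under other settings. Of these repeats, 767 kept their side of the threshold, 51 lost a call and 7 gained one. With a call in either fit, 0 reversed in sign. Uncalled differences that changed sign count among those kept. For Dlk1 1442724_PM_at, NASH+ISO minus NASH ran from -0.06 to 0.17 when each array was left out in turn. The gains were Afp 1436880_PM_at (3), Dlk1 1442724_PM_at (2), Gpc3 and Krt7. Without moderation of the spread, calls at any fold came to 6 in NASH against CTL (0 lower), 9 in NASH+ISO against CTL (0 lower) and 7 in NASH+ISO against NASH (4 higher). The lower call in NASH+ISO against CTL, Krt19, was 0 also with only the 4 arrays compared and with quantile normalization, and 2 were lower at unadjusted p. With a fold of at least 1.5 in place of 2, 3 probe sets passed in NASH+ISO against NASH, 2 higher and 1 lower.

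Leaving out each array in turn gave 9 to 10 calls at any fold in NASH against CTL (7 to 8 higher, 1 to 2 lower), 12 to 14 in NASH+ISO against CTL (12 to 14 higher, 0 to 1 lower) and 8 to 13 in NASH+ISO against NASH (5 to 9 higher, 3 to 4 lower). At a fold of 2 the counts were 4 to 4, 3 to 4 and 0 to 0. Of the list genes, 104 to 119, 101 to 116 and 76 to 96 were called, beside 121, 122 and 96 with all arrays.

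The replicate numbers share no stated litter or day, and the deviations of same-numbered arrays correlated at 0.0465, 0.047 and 0.0916. With the replicate block, calls at any fold were 11, 14 and 12: Epcam 1416579_PM_a_at lost its call between NASH+ISO and NASH (0.19, adjusted p = 0.0635) and Afp 1436880_PM_at gained one between NASH and CTL (-0.17, adjusted p = 0.0368).

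With 2 arrays per group, calls rest on a spread shared across probe sets: without moderation, differences of up to 0.71 log2 in size lost theirs, among Afp 1416646_PM_at, H19, Ly6d (NASH+ISO against NASH), Krt19, Sox9 1433889_PM_at, Epcam and Cd24a. Signals near 2.90 log2 cannot be told from background, and this level comes from control probes that need not match each probe set.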
